A study of Mus musculus and Homo sapiens with 47 samples.

Results

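The members described here are 57 mouse transcription factors of embryonic patterning outside the Hox clusters, taken from a list of symbols in the T-box, forkhead, sine oculis homeobox, LIM-homeobox, Pax, Gata, Barx, Irx, Dlx, Nkx, other homeobox, helix-loop-helix and zinc finger families. All 57 were found among the 24014 genes of the mouse bulk count table, with Foxf1a listed there as Foxf1. In the bulk libraries 35 of them passed the filter on low counts and were tested, and 22 did not. The cells were intestinal stem cells of adult mice on a mixed B6;129 background with the genotype Eed F/F; Lgr5EGFP-IRES-CreERT. Tamoxifen was given on 5 consecutive days and on alternate days afterwards, and GFP-positive cells were sorted from epithelium of the proximal intestine. Cre and GFP are both driven from the stem cell gene Lgr5, so recombination starts in cells that express it. Every group carried the Eed deletion. Bulk RNA came as 3 libraries labelled day 9, a pair for day 14 and another for day 21, and 1 for day 30, and single cells as 1 library per day at days 7, 12 and 16. What happened on day 0 is not said in the labels. Wild-type RNA was not analysed here, and day 9 served as the reference.

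Eed is a core subunit of Polycomb repressive complex 2 (PRC2), which methylates histone H3 at lysine 27 and keeps genes silent. In differentiated and adult stem cells the promoters of patterning factors are textbook targets of this mark, and many of them are CpG islands, stretches rich in the dinucleotide CG. The factors themselves bind DNA and set the identity of embryonic regions such as limb, heart, eye, brain, kidney and gonad, and most have no known role in the adult intestinal epithelium.

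The bulk libraries held 21328684 to 27900351 counts. All but day 14 replicate 2 are labelled biological replicates, and the title of that library gives a replicate number alone. No animals are named, so part of the spread behind each p-value may be technical. The summed level of 5 stem cell markers lay between 5680 and 9300 CPM (counts per 1000000, scaled by TMM effective library size) in the 8 libraries, although one label field calls the source of the RNA villus cells. Eed RNA was counted at 34.2 to 86.1 CPM, highest at day 14, and counts over the whole gene, which do not separate the deleted part, check neither the deletion nor the labels. Markers of other cells differed between days: 12 stromal markers summed to 15.2 to 19.9 CPM at day 9, 3.59 to 5.67 at day 14, 15.5 and 40.8 at day 21 and 20.9 at day 30, and 13 immune markers to 11.8 to 17.7, 2.14 to 6.6, 28.1 and 39, and 9.2 CPM. In the day 21 fit 2 of 7 tested stromal markers (Col1a2 and Col3a1) and 3 of 11 tested immune markers (C1qb, Csf1r and Lyz2) were called higher than at day 9. In single libraries 0 to 10 stromal and 0 to 9 immune markers were at 0. Among epithelial lineages, 6 tuft cell markers summed to 30.5 to 69.6 CPM at day 9, 82.7 and 93.2 at day 14, 254 and 102 at day 21 and 235 at day 30, and 4 of the 6 were called higher at day 21 and 4 at day 30. The 5 Paneth cell markers summed to 12700 to 23900 CPM at day 9, 16300 and 15300 at day 14, 10600 and 2090 at day 21 and 1480 at day 30. The part of these cells in the results was not tested. In bulk RNA, fewer cells of a type and less RNA per cell cannot be told apart. Each adjusted p given for bulk RNA comes from the quasi-likelihood test of edgeR with Benjamini-Hochberg adjustment over the 14692 genes tested, and a gene is called where it is under 0.05. The day 30 library was tested with the spread of the other days.

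Of the members, 35 of 57 (61.4%) have an entry in the RefSeq promoter table (GRCm38.p6), so no summary of promoters over the members is given. The sequences below are the 250 bases before the annotated start of 5 members on the gene's strand, 5′ to 3′, with each CG dinucleotide in capitals. They show 4 factors that rose after day 9 (Barx1, Foxc1, Foxl2 and Tbx18) and 1 that was already above 1 CPM at day 9 and was not called (Pax8). Irx3, whose sequence is not shown, was also above 1 CPM and not called, and holds 13 CG in its window, a number reached by 31.5% of promoters, close to that of Tbx18.
Barx1: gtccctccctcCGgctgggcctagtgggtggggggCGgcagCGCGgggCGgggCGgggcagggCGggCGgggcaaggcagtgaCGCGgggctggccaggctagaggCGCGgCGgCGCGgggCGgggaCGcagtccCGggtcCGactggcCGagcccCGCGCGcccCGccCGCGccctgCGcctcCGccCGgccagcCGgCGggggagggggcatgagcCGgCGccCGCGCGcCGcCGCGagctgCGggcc
Foxc1: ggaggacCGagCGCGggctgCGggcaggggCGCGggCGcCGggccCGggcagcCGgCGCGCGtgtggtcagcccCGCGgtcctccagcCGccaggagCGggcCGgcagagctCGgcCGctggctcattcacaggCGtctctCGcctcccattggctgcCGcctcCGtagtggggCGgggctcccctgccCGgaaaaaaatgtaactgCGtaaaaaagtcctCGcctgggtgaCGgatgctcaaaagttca
Foxl2: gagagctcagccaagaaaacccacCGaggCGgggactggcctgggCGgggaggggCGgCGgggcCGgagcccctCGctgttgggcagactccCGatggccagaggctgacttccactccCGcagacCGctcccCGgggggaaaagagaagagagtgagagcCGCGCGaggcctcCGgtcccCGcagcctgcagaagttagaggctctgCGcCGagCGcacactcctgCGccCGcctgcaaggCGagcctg
Tbx18: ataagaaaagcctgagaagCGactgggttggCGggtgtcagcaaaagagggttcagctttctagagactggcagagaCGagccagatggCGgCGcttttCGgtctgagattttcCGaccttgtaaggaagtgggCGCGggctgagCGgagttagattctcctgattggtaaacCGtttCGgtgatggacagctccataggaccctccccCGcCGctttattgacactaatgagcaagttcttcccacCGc
Pax8: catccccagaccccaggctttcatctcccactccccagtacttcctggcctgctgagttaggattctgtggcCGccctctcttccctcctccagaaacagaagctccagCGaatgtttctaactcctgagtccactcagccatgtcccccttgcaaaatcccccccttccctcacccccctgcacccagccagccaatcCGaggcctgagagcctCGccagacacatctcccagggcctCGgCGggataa
Barx1 (chr13:48662786-48663035, plus strand) holds 40 CG, as many as or more than are found in all but 1.31% of 32851 promoters of the same length. Foxc1 (chr13:31806396-31806645, plus strand) holds 29, reached by 6.78% of promoters, and Foxl2 (chr9:98955357-98955606, plus strand) 22, reached by 14.8%. Tbx18 (chr9:87731261-87731510, minus strand) holds 15, reached by 27.3%. Pax8 (chr2:24475600-24475849, minus strand) holds 6, reached by 50.4%. The 5 were picked with their changes known, and the counts describe these windows alone.

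At day 9 most members were near or below what the depth can show. Over the 3 day 9 libraries, 15 members had 0 counts, 13 had 1 to 3 counts, 12 had more counts but a mean under 0.1 CPM, 12 had a mean of 0.1 to 1 CPM and 5 were above 1 CPM. Those 5 were Tbx3, Pitx1, Barx2, Pax8 and Irx3. Without Tbx3, Pitx1 and Barx2, the other 54 members summed to 4.78, 9.38 and 5.41 CPM at day 9. The sum was 15.9 and 15.3 at day 14, 48.3 and 48.1 at day 21 and 65.1 at day 30. The 4 days did not overlap in this sum. All 57 members summed to 98.4, 101 and 100 CPM at day 9, 103 and 98.1 at day 14, 187 and 164 at day 21 and 171 at day 30. In that full sum day 14 overlapped with day 9, and day 30 lay between the day 21 libraries.

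**Figure D1:**
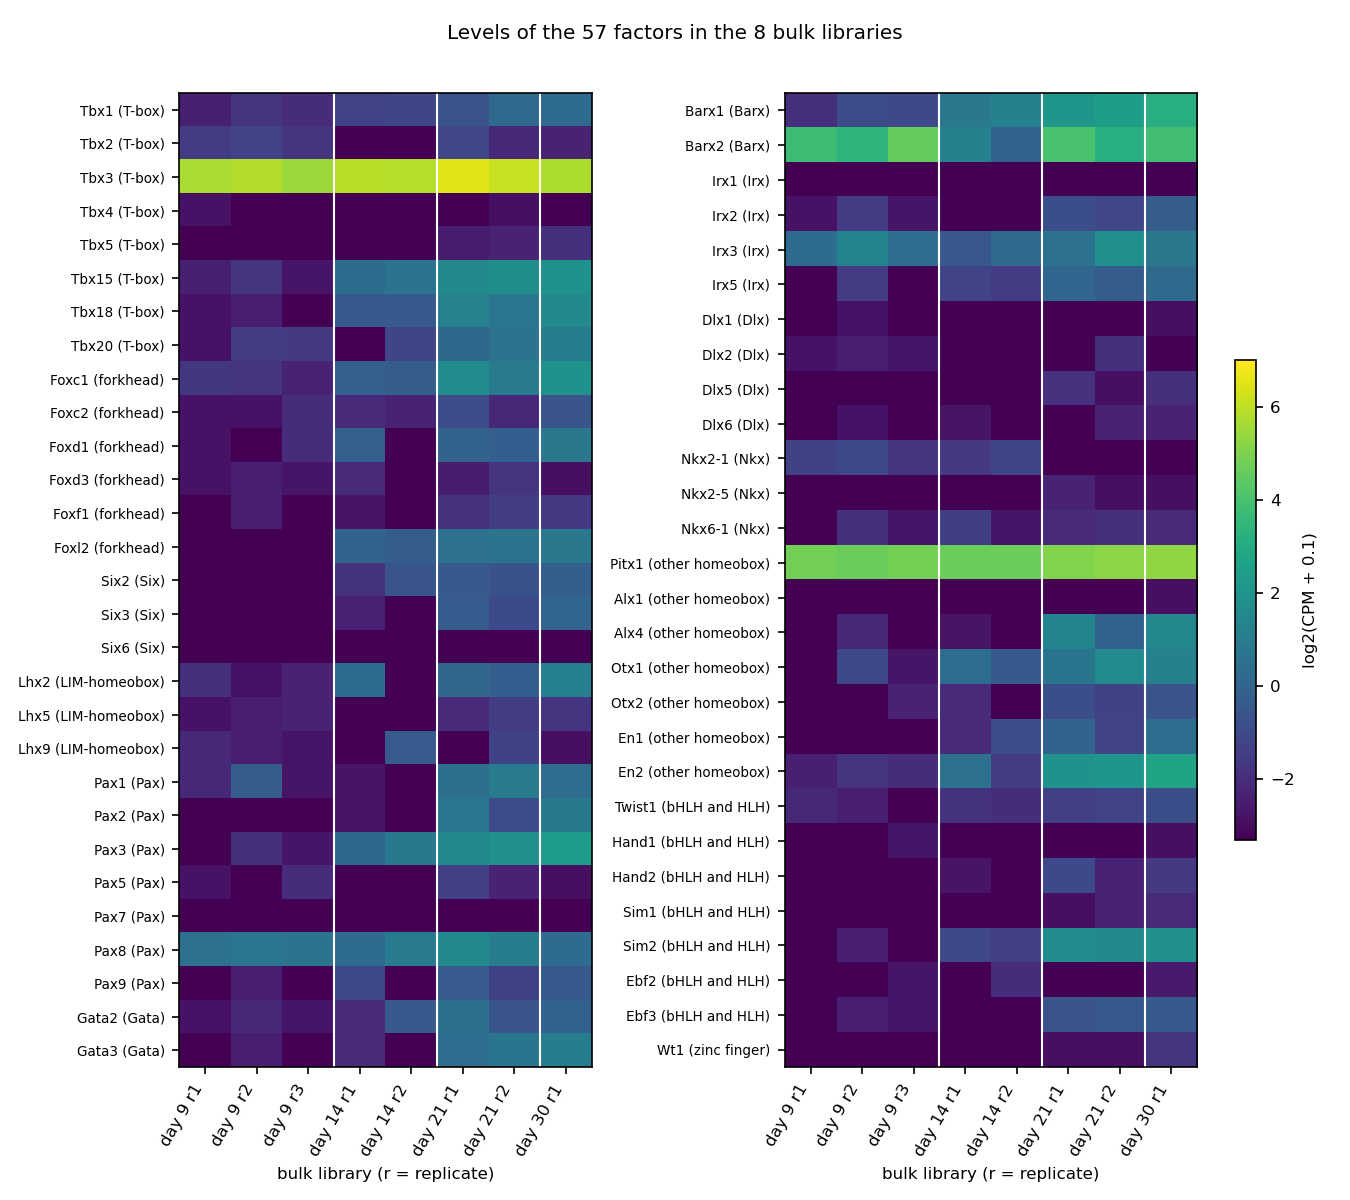
Levels of the 57 members in each of the 8 bulk libraries, as log2 of CPM plus 0.1 (colour), with members in rows by family and libraries in columns by day and replicate (r). Tbx3, Pitx1 and Barx2 are bright from day 9 on, Barx2 darkens in both day 14 libraries, and many rows that are dark at day 9 lighten at days 21 and 30.

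By the time of the change, the members fell into 4 sets. Against day 9, 11 were called higher at day 14 (25.4% of all tested genes were called higher there) and each of these was also called higher at days 21 and 30. A further 9 were called higher at day 21 or 30 and not at day 14. Barx2 was called lower at day 14 (25.7% of all tested genes were), and 14 tested members had no call against day 9. At day 21, 19 members were called higher, against 7.46% of all tested genes, and at day 30, 17, against 3.67%. edgeR called 0 members lower at either day, with 0 at an unadjusted p under 0.05. Of all 14692 tested genes it called 1878 lower at day 21 and 972 at day 30. DESeq2 called 1 member lower at day 21 and 0 at day 30. The median log2 change over the 35 tested members was 2.1 at day 14, 3.68 at day 21 (3.6 with members at 0 set to their bounds) and 4.23 at day 30 (4.03 with bounds), beside -0.04, -0.01 and -0.01 over all tested genes. Of the 35 tested members, 29 passed the filter only through libraries after day 9 and so had to differ, which makes the counts and medians a description and no support for a direction.

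Between days 14 and 21, 17 members were called higher, against 29.5% of all tested genes. They were Tbx3, Tbx15, Tbx18, Tbx20, Foxc1, Six3, Pax1, Pax2, Gata3, Barx1, Barx2, Irx2, Pitx1, Alx4, En2, Sim2 and Ebf3. Between days 21 and 30 edgeR called 0 members higher, as it did 0% of all tested genes. At an unadjusted p under 0.05 edgeR had 0 members higher and 1 lower there, and DESeq2 called 0 in either direction. edgeR also called 0 members lower between days 14 and 21, with 0 at an unadjusted p under 0.05, where DESeq2 called 1. Of all 14692 tested genes edgeR called 4281 lower there. The counts depended on single libraries. The 19 at day 21 became 11 without day 21 replicate 1, and the 17 at day 30 became 10 without day 9 replicate 1. The 17 between days 14 and 21 became 11 without any one of 3 libraries: without day 14 replicate 2, without day 21 replicate 1 or without day 21 replicate 2. Without day 21 replicate 2, which held the 40.8 CPM of stromal and 39 CPM of immune markers, 16 members were called higher at day 21.

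The T-box factors pattern limbs, heart and craniofacial tissue. Of the 8 members 5 were tested, and 4 were called higher at day 21, against 7.46% of all tested genes. Tbx15, a factor of limb and skin development, was at 0.0861, 0.203 and 0.0483 CPM at day 9, 1.16 and 1.41 at day 14, 2.8 and 3.38 at day 21 and 3.71 at day 30. No day overlapped with another. Its rise at day 21 was 25.7-fold (log2 4.68, SE 0.51, adjusted p = 0.000423), and it was already 10.7-fold higher at day 14 (adjusted p = 0.000747). Tbx18, known from the epicardium and the ureter, had 1, 2 and 0 counts at day 9, 14 and 13 at day 14, 64 and 48 at day 21 and 84 at day 30. Its ratio of counts per effective library at day 21 was 43.6 (95% interval 14.6 to 215; adjusted p = 0.00105). Intervals of such bulk ratios pool the counts of each day and cover counting error only, without the spread between replicates. Tbx1, which acts in the pharyngeal arches, rose less. It was at 0.0861, 0.203 and 0.145 CPM at day 9, 0.325 and 0.34 at day 14, 0.532 and 1.08 at day 21 and 1.13 at day 30. At day 21 it was called higher than at day 9 (log2 2.44, SE 0.65, adjusted p = 0.0311). That call was lost without any one of the day 9 libraries or day 21 replicate 2, with adjusted p-values of 0.0544 to 0.201, and its day 30 call without any one of the day 9 libraries, with 0.0632 to 0.131. Tbx20, a cardiac factor, stood at 0.994 and 1.41 CPM at day 21 and 1.92 at day 30, above 0.043 to 0.244 at day 9, but did not pass the test against it (adjusted p = 0.0639 and 0.0683). Between days 14 and 21 it did (log2 2.81, SE 1.06, adjusted p = 0.0475). The rises of Tbx15, Tbx18 and Tbx20 between days 14 and 21 were each lost without any one of 5 libraries, with adjusted p-values of 0.0564 to 0.162, 0.0626 to 0.184 and 0.057 to 0.135.

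Tbx3 behaved otherwise and was abundant from the start. Its level was 52.1, 55.4 and 43 CPM at day 9, 59.5 and 57 at day 14, 89.7 and 70.8 at day 21 and 53.1 at day 30. The day 21 libraries lay above all the others, a 1.6-fold rise over day 9 (log2 0.68, SE 0.13, adjusted p = 0.00939), and day 30 lay within the day 9 range (log2 0.08, SE 0.17, adjusted p = 0.818). The day 21 call of Tbx3 was lost without day 21 replicate 1 (adjusted p = 0.0596), and its rise from day 14 (log2 0.46, adjusted p = 0.0253) without any one of 3 libraries (0.0586 to 0.164). Tbx2, Tbx4 and Tbx5 stayed too low to test. Tbx5, a limb and heart factor that lies next to Tbx3 in RefSeq order with no protein-coding gene between, had 0 counts in the 5 libraries of days 9 and 14, 2 and 3 at day 21 and 5 at day 30. Tbx2 went the other way at day 14, with 6, 8 and 4 counts at day 9 and 0 in both day 14 libraries, and with 10 and 4 counts at day 21. It was called lower at day 14 by DESeq2 (log2 -4.91, adjusted p = 0.0431) and by edgeR without the filter.

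Among the 6 forkhead factors 4 were tested, and 2 were called higher at day 21, against 7.46% of all tested genes. Foxl2, which maintains the ovarian granulosa cell, had 0 counts in each day 9 library, 19 and 15 at day 14, 38 and 44 at day 21 and 50 at day 30. Against a floor of 3 counts over the day 9 group it was at least 18.4-fold higher at day 14 (adjusted p = 0.000927), at least 32-fold at day 21 (adjusted p = 0.00182) and at least 37.8-fold at day 30 (adjusted p = 0.00369). Foxc1, a factor of eye and mesoderm development, was at 0.215, 0.203 and 0.0967 CPM at day 9, 0.79 and 0.729 at day 14, 3.05 and 1.81 at day 21 and 3.74 at day 30. Both its steps passed the test, 4.27-fold by day 14 (adjusted p = 0.00923) and a further 3.18-fold by day 21 (adjusted p = 0.0163), the second being lost without day 14 replicate 2 or day 21 replicate 1 (adjusted p = 0.0502 and 0.129). Foxd1, a renal stroma factor, was at 0.043, 0 and 0.145 CPM at day 9, 0.79 and 0 at day 14, 0.887 and 0.755 at day 21 and 1.59 at day 30, and its differences from day 9 did not pass the test (adjusted p = 0.0773 at day 21 and 0.0712 at day 30). Foxc2 did not pass either, and Foxd3 and Foxf1 were not tested.

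Members of the sine oculis homeobox family, which act in eye, kidney and forebrain, started from 0. Six2, the marker of nephron progenitors, had 0 counts in the 3 day 9 libraries, 4 and 11 at day 14, 18 and 15 at day 21 and 23 at day 30. It was at least 8.14-fold higher at day 14 (adjusted p = 0.0108) and at least 12.9-fold at day 21 (adjusted p = 0.0155). Its neighbour Six3, an eye and forebrain factor with no protein-coding gene between them, came later, with 0 counts at day 9, 2 and 0 at day 14, 20 and 12 at day 21 and 28 at day 30. Six3 was at least 12.5-fold higher at day 21 (adjusted p = 0.0233) and at least 21.2-fold at day 30 (adjusted p = 0.0295). The difference between the pair at day 14 was not tested. From day 14 to day 21 the Six3 ratio was 11.5 (2.93 to 99; adjusted p = 0.0474), a call lost without any one of 5 libraries (0.0518 to 0.156). Six2 lost its day 21 call without day 21 replicate 1 (adjusted p = 0.0517) and its day 30 call without day 9 replicate 1 (0.0609). Six3 lost its day 21 call without day 9 replicate 1 or 3 or day 21 replicate 1 (0.051 to 0.0796) and its day 30 call without any one day 9 library (0.0538 to 0.0707). Six6 had 0 counts in all 8 libraries.

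Of the Pax factors, which specify kidney, neural crest, skeleton and eye, 5 of 7 were tested. At day 21, 2 were called higher, against 7.46% of all tested genes. Pax3, a neural crest and muscle progenitor factor, was at 0, 0.162 and 0.0483 CPM at day 9, 1.02 and 1.7 at day 14, 2.77 and 3.68 at day 21 and 4.93 at day 30. It was 17.6-fold higher at day 14 (adjusted p = 0.00142), 41.7-fold at day 21 (log2 5.38, SE 0.69, adjusted p = 0.00105) and 63.8-fold at day 30 (adjusted p = 0.00149). Pax2, which acts in the kidney and optic stalk, was late. It had 0 counts at day 9, 1 and 0 at day 14, 44 and 13 at day 21 and 51 at day 30, at least 22.2-fold higher at day 21 (adjusted p = 0.0139) and at least 38.6-fold at day 30 (adjusted p = 0.0183). The day 21 replicates stood apart at 1.56 and 0.427 CPM, and the Pax2 call was lost without replicate 1 of that day (adjusted p = 0.0538). Its ratio of day 21 to day 14 was 40.9 (7.06 to 1650; adjusted p = 0.015), a call lost without either of 2 libraries (0.068 and 0.0704).

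Pax8, a thyroid and kidney factor, was above 1 CPM throughout, at 1.38, 1.58 and 1.45 CPM at day 9, 1.12 and 1.75 at day 14, 2.87 and 1.94 at day 21 and 1.13 at day 30, with no call at any day (adjusted p = 0.944, 0.214 and 0.678). Pax1, a factor of the vertebral column and thymus, dipped to 1 and 0 counts at day 14 from 3, 18 and 1 at day 9, and had 37 and 54 counts at day 21. It was called between days 14 and 21 (ratio 65.4, 95% interval 11.4 to 2610; adjusted p = 0.0075) and not against day 9 (adjusted p = 0.0871 at day 14 and 0.0932 at day 21). Pax9 had 2 counts over the day 9 group and 28 over the day 21 group, a ratio of 16.4 that did not pass the test (adjusted p = 0.085). Pax5 was not tested, and Pax7 had 0 counts in all 8 libraries.

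Both Gata members were tested and called higher at day 21, against 7.46% of all tested genes. Gata3, known from T cells, skin and the sensory placodes, had 0, 2 and 0 counts at day 9, 3 and 0 at day 14, 34 and 46 at day 21 and 57 at day 30. The Gata3 ratio was 46.8 at day 21 (95% interval 12.5 to 393; adjusted p = 0.00822) and 64.7 at day 30 (17.1 to 547; adjusted p = 0.0132). Gata2, a factor of blood stem cells, was at 0.043, 0.122 and 0.0483 CPM at day 9, 0.139 and 0.631 at day 14, 1.31 and 0.558 at day 21 and 0.828 at day 30. It was called at day 21 (12.1-fold, adjusted p = 0.0227) and not at day 30 (adjusted p = 0.0661). The Gata2 call was lost without day 9 replicate 1 or 3 or day 21 replicate 1 (adjusted p = 0.0766 to 0.125), and the day 30 call of Gata3 without day 9 replicate 1 (0.0519). Immune cells also carry both genes. The 13 immune markers summed to 28.1 and 39 CPM at day 21 and to 9.2 at day 30, where Gata3 was at 1.89 CPM. The part of immune cells in the Gata results was not tested.

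The 2 Barx factors, which are paralogues, moved in opposite directions from day 9 to day 14 and both rose from day 14 to day 21. Barx1, known from stomach mesenchyme and teeth, was at 0.172, 0.406 and 0.387 CPM at day 9, 1.67 and 2.19 at day 14, 4.33 and 5.42 at day 21 and 8.67 at day 30. The days of Barx1 did not overlap, and it was 5.93-fold higher at day 14 (adjusted p = 0.000775), 15-fold at day 21 (log2 3.9, SE 0.39, adjusted p = 0.000237) and 26.6-fold at day 30 (adjusted p = 0.000236). Barx2, expressed in several epithelia, had 13.8, 10.5 and 23.3 CPM at day 9. At day 14 it had 2.14 and 0.826 CPM, a fall of 10.6-fold (log2 -3.41, SE 0.53, adjusted p = 0.000727). At day 21 it was at 16.3 and 8.74 CPM and at day 30 at 14.3 CPM, within or close to the day 9 range (adjusted p = 0.613 and 0.901). Its return between days 14 and 21 passed the test (log2 3.07, SE 0.54, adjusted p = 0.00133). Other sums moved with Barx2 at day 14: 6 enterocyte markers summed to 1530 to 1950 CPM at day 9, 560 and 591 at day 14 and 6100 and 1670 at day 21, and 5 goblet markers to 5450 to 7090, 3420 and 3510, and 6060 and 11500 CPM. The day 14 libraries also held counts of 14988 and 13707 genes, against 16163 to 16952 in the other libraries, and other genes were low there as well. Axin2, a Wnt target, had mean levels of 426, 97.5 and 414 CPM at days 9, 14 and 21, Foxk1 of 121, 21.6 and 154, and Foxo4 of 78.8, 1.62 and 58.8. The part of these markers and of what sets the day 14 libraries apart in the Barx2 result was not tested. The Barx1 rise from day 14 to day 21 (2.53-fold, adjusted p = 0.0153) was lost without day 14 replicate 1 or day 21 replicate 2 (0.058 and 0.0775). Without day 9 replicate 3 the count of members called lower at day 14 was 3, with Tbx2 and Pax1 beside Barx2.

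**Figure D2:**
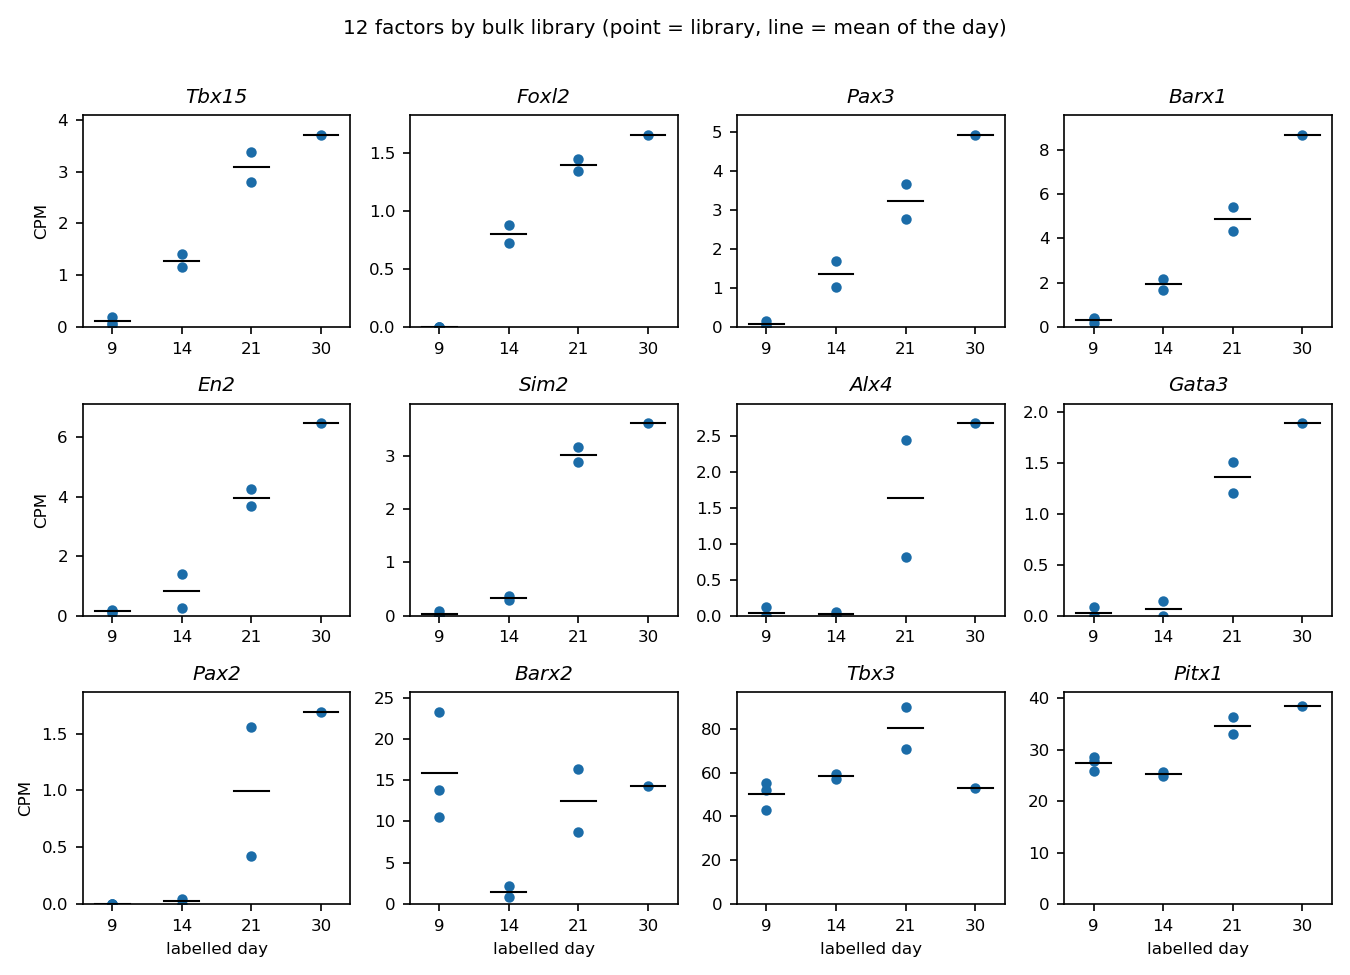
CPM of 12 members in the bulk libraries by labelled day (points are libraries, lines are means of the day, each panel with its own linear axis from 0). Tbx15, Foxl2, Pax3 and Barx1 are above day 9 in both day 14 libraries, Alx4, Gata3 and Pax2 are near 0 until day 21, and Barx2 drops at day 14 and returns.

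The Irx factors, which pattern heart, limb and neural tissue, had no call against day 9. Irx3 was the one above 1 CPM at day 9, at 1.16, 2.44 and 1.21 CPM, then 0.604 and 1.07 at day 14, 1.35 and 3.55 at day 21 and 1.66 at day 30 (adjusted p = 0.216, 0.458 and 0.977). Irx5, its neighbour with no protein-coding gene between, was at 0, 0.244 and 0 CPM at day 9, 0.325 and 0.243 at day 14, 0.923 and 0.723 at day 21 and 1.09 at day 30, with an adjusted p of 0.0607 at day 21. Irx2 had 1, 6 and 1 counts at day 9, 0 in both day 14 libraries, 13 and 11 at day 21 and 22 at day 30. Day 21 was at least 5.75-fold above day 14 (adjusted p = 0.0164). Irx1 had 0 counts in all 8 libraries. The LIM-homeobox factors had no call either: Lhx2, a factor of eye, limb and hair follicle, was at 0.172, 0.0406 and 0.0967 CPM at day 9, 1.12 and 0 at day 14, 0.958 and 0.755 at day 21 and 2.09 at day 30 (adjusted p = 0.134, 0.105 and 0.0681).

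The engrailed genes, which pattern the midbrain and limb ectoderm, both rose. En2 was at 0.0861, 0.203 and 0.145 CPM at day 9, 1.39 and 0.243 at day 14, 3.69 and 4.24 at day 21 and 6.46 at day 30, 26.4-fold higher at day 21 (log2 4.72, SE 0.67, adjusted p = 0.00189) and 42.9-fold at day 30 (adjusted p = 0.00242). Its day 14 call (adjusted p = 0.0208) rests on 1 library: without day 14 replicate 1 the log2 difference was 0.68 (adjusted p = 0.486), and it was also lost without day 9 replicate 1 or 3. En1 had 0 counts at day 9, 3 and 9 at day 14, 24 and 10 at day 21 and 37 at day 30, at least 13.2-fold higher at day 21 (adjusted p = 0.0199) and at least 28-fold at day 30 (adjusted p = 0.0209). Its calls were lost without day 14 replicate 2 at day 14 (adjusted p = 0.0994), without day 21 replicate 1 at day 21 (0.0749) and without day 9 replicate 1 at day 30 (0.0519).

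Of the other homeobox factors, Alx4, a craniofacial and limb factor, had 0, 3 and 0 counts at day 9, 1 and 0 at day 14, 69 and 25 at day 21 and 81 at day 30. Its ratio was 36.6 at day 21 (95% interval 12.2 to 181; adjusted p = 0.00998) and 61.3 at day 30 (20.2 to 303; adjusted p = 0.0127), and the day 21 call was lost without day 21 replicate 1 (0.0572). Otx1, a forebrain factor, was at 0, 0.366 and 0.0483 CPM at day 9, 1.21 and 0.631 at day 14, 1.53 and 3.05 at day 21 and 2.22 at day 30. It was called at all 3 days (adjusted p = 0.0438, 0.017 and 0.0431), and each call was lost without some single library: 5 of them at day 14 (0.0517 to 0.198), day 9 replicate 3 or day 21 replicate 2 at day 21 (0.0528 and 0.0774), and 4 at day 30 (0.0597 to 0.102). The hindlimb factor Pitx1 was abundant from the start, at 27.7, 25.8 and 28.5 CPM at day 9, 25.6 and 24.9 at day 14, 33 and 36.3 at day 21 and 38.5 at day 30. It was 1.41-fold higher at day 30 (log2 0.49, SE 0.13, adjusted p = 0.0464), a call lost without any one library of day 9 or day 14 (0.0577 to 0.107). At day 21 its difference from day 9 did not pass (log2 0.34, adjusted p = 0.0512), while that from day 14 did (log2 0.46, adjusted p = 0.00895) except without day 21 replicate 2 (0.0504). Otx2 was not called, and Alx1 was not tested.

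In the helix-loop-helix group 4 of 7 were tested, and 2 were called higher at day 21, against 7.46% of all tested genes. Sim2, a factor of the developing brain and muscle, had 0, 2 and 0 counts at day 9, 8 and 6 at day 14, 89 and 88 at day 21 and 109 at day 30. Its ratio was 103 at day 21 (95% interval 28.2 to 861; adjusted p = 0.000523) and 124 at day 30 (33.4 to 1030; adjusted p = 0.00105). It was already called at day 14 (11.4; adjusted p = 0.0136), a call lost without day 14 replicate 1 (0.0534). Ebf3, a neuronal and mesenchymal factor, had 0, 2 and 1 counts at day 9, 0 in both day 14 libraries, 15 and 19 at day 21 and 20 at day 30. The Ebf3 ratio at day 21 was 13.2 (4.17 to 67.4; adjusted p = 0.0343). That call was lost without any one library of day 9 or day 21 (0.0603 to 0.112). Twist1 and Hand2 were tested and not called, and Hand1, Sim1 and Ebf2 were not tested. The 4 Dlx and 3 Nkx members and Wt1 were also too low to test: their highest value was 0.366 CPM, of Nkx2-1 at day 9.

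Other genes of the same families, 87 listed genes that are no members, were counted in the same fit. Of these, 46 were tested, with 14 called higher and 1 lower at day 21 (median log2 0.56) and 8 higher at day 30 (median 0.58). Eomes, a T-box factor, was 10.1-fold higher at day 21 (adjusted p = 0.00699), and Pax6, present in enteroendocrine cells, 5.07-fold (adjusted p = 0.00303). Of 23 listed factors of the intestinal epithelium, 9 were called higher and 6 lower at day 14, 3 higher and 1 lower at day 21 (median log2 0), and 8 higher and 9 lower between days 14 and 21. At day 21 Cdx2 (log2 0.08), Gata4 (0.12) and Gata6 (-0.02) had no call. The Hox genes, 30 of 39 of them tested, had 20 called higher at day 21 and 16 at day 30. Among all 14692 tested genes, 25.4% were called higher and 25.7% lower at day 14. At day 21, 7.46% were called higher and 1878 genes lower, and at day 30, 3.67% were called higher. Between days 14 and 21, 29.5% were called higher and 4281 genes lower. The difference between these lists and the members was not tested.

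In single cells the same factors could be followed at days 7, 12 and 16, with 3828, 4685 and 2768 cells and medians of 7957, 7560 and 11905 UMIs (unique molecules counted) per cell. With 1 library per day there is no test, and a factor is called past the rule where its UMI CPM (UMIs per 1000000 UMIs of kept cells) differs at least 2-fold and the pair of libraries holds at least 10 UMIs of it. Intervals are exact Poisson or Clopper-Pearson ones at 95% and cover counting error only. Epcam UMIs were found in 99.7%, 99.9% and 99.4% of cells, and 1, 2 and 21 cells carried at least 3 markers of a stromal, endothelial, neural or immune list. At day 16 the 21 such cells were all of the immune list, and they held 11 of the 1454 member UMIs counted without Tbx3, Pitx1 and Barx2. The libraries shared 4 barcodes between days 7 and 12, 1 between days 7 and 16 and 4 between days 12 and 16. Members with a UMI numbered 25 at day 7, 37 at day 12 and 43 at day 16. Without Tbx3, Pitx1 and Barx2, the members summed to 10.4 UMI CPM (9.39 to 11.5) at day 7, 54.3 (52.1 to 56.7) at day 12 and 41.2 (39.1 to 43.4) at day 16. In cells thinned to 2000 UMIs, 1.88%, 9.86% and 7.8% carried one (6.37%, 23.6% and 24% before thinning). Barcodes under 100 UMIs, which hold free RNA, gave 9.85, 50.2 and 31 UMI CPM.

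From day 7 to day 12, 9 of 14 members with enough UMIs were past the rule upward (12.6% of 14152 genes) and 1, Barx2, downward (4.77%). From day 12 to day 16, 27 of 36 were higher (11.7% of 14428 genes) and 5 lower (21.5%). From day 7 to day 16, 28 of 33 were higher (10.8% of 14039 genes) and 2, Irx5 and Foxc2, lower (12.5%). Members at or near 0 UMIs on the earlier day, such as Pax3, Foxl2 and Tbx18, had enough UMIs only through the later day and so had to be past the rule upward, and these counts are a description with no support for a direction. By level, Pitx1 was the highest member at each of the 3 days.

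Irx5, Irx3, Foxc2, Tbx1 and Foxc1 had their highest level at day 12. Irx5 had 252, 1317 and 78 UMIs at days 7, 12 and 16, which is 7.1 (6.25 to 8.03), 32.7 (30.9 to 34.5) and 2.21 (1.75 to 2.76) UMI CPM. Its peak stood apart from both other days. Irx3 went from 0.366 to 5.43 and 1.93 UMI CPM, and Foxc2, a lymphatic and mesenchymal factor, from 0.31 to 5.31 (4.62 to 6.07) and back to 0.0567 with 2 UMIs. Tbx1 had 0.451, 3.84 and 0.709 UMI CPM and Foxc1 0.62, 3.42 and 2.01. Day 16 was below day 12 by the rule for Irx5, Irx3, Foxc2, Tbx1 and Tbx2. Foxc1 and Tbx1 rose in the bulk series, where days 12 and 16 were not sampled. In bulk RNA at days 9 and 14 each of these factors was below its day 12 single-cell level. Irx5 had means of 0.0812 and 0.284 CPM there, and Foxc2 of 0.0762 and 0.118. Irx3 had 1.6 and 0.836, Tbx1 0.145 and 0.333, and Foxc1 0.172 and 0.759. Bulk CPM and UMI CPM are unlike measures, and the gap between them was not tested.

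Irx3 and Irx5, neighbours on the chromosome, shared cells at each day. At day 12, 177 cells held an Irx3 UMI and 688 an Irx5 UMI, and 96 held both, 54.2% of the first and 14% of the second, beside 14.7% of all cells with Irx5 and 3.78% with Irx3. At day 7, 2 of 13 Irx3 cells held Irx5 (15.4%, beside 3.71% of all cells), and at day 16, 6 of 66 (9.09%, beside 2.49%). The day 12 cells with Irx3 were not deeper than the rest (median 6792 against 7584 UMIs). The day 12 cells with Irx5 held 1360 UMI CPM of Vim against 574 in the rest, and 59.6 against 84.7 of the proliferation gene Mki67. Vim, an intermediate filament gene usual in mesenchyme, made up 27352 of the 27714 UMIs of the stromal list at day 12, while Col1a2, Col3a1 and Des had 0 UMIs in all 3 libraries. Of the 12 stromal markers, 4, 6 and 6 were at 0 UMIs at days 7, 12 and 16, and the others were detected. The stromal list, Vim included, stood at 687 UMI CPM at day 12. In bulk RNA it summed to 15.2 to 19.9 CPM at day 9 and 3.59 to 5.67 at day 14. The part of Vim in the Irx5 levels was not tested.

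Other members had their highest level at day 16, with few UMIs before, although Irx5, Foxc1 and Irx3 still lay above several of them there. Barx1 had 1, 12 and 327 UMIs at days 7, 12 and 16, or 0.0282, 0.298 and 9.28 (8.3 to 10.3) UMI CPM, with 7.42 UMI CPM in day 16 barcodes under 100 UMIs. Pax3 had 0, 8 and 108 UMIs, En2 2, 0 and 106, Foxl2 0, 0 and 52, Lhx2 2, 1 and 50, Twist1 2, 5 and 45, and Tbx18 0, 0 and 39. Foxl2 and Tbx18 were thus at 0 UMIs until day 12 and are 2 of the factors that bulk RNA called higher at day 14. Barx2 had 105, 47 and 890 UMIs, or 2.96, 1.17 (0.856 to 1.55) and 25.2 (23.6 to 27) UMI CPM, so its lowest single-cell level was at day 12 and its lowest bulk level at day 14. Pitx1 (60, 59.4 and 34.4 UMI CPM) and Tbx3 (31.5, 30.6 and 19.6) were lower at day 16 by less than the 2-fold rule. Tbx5, Foxf1, Six6, Pax5, Pax7, Irx1, Dlx2, Dlx6, Nkx2-1, Alx1, Hand1 and Sim1 had 0 UMIs in the 3 libraries, which allows up to 0.104, 0.0915 and 0.105 UMI CPM at days 7, 12 and 16.

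**Figure D3:**
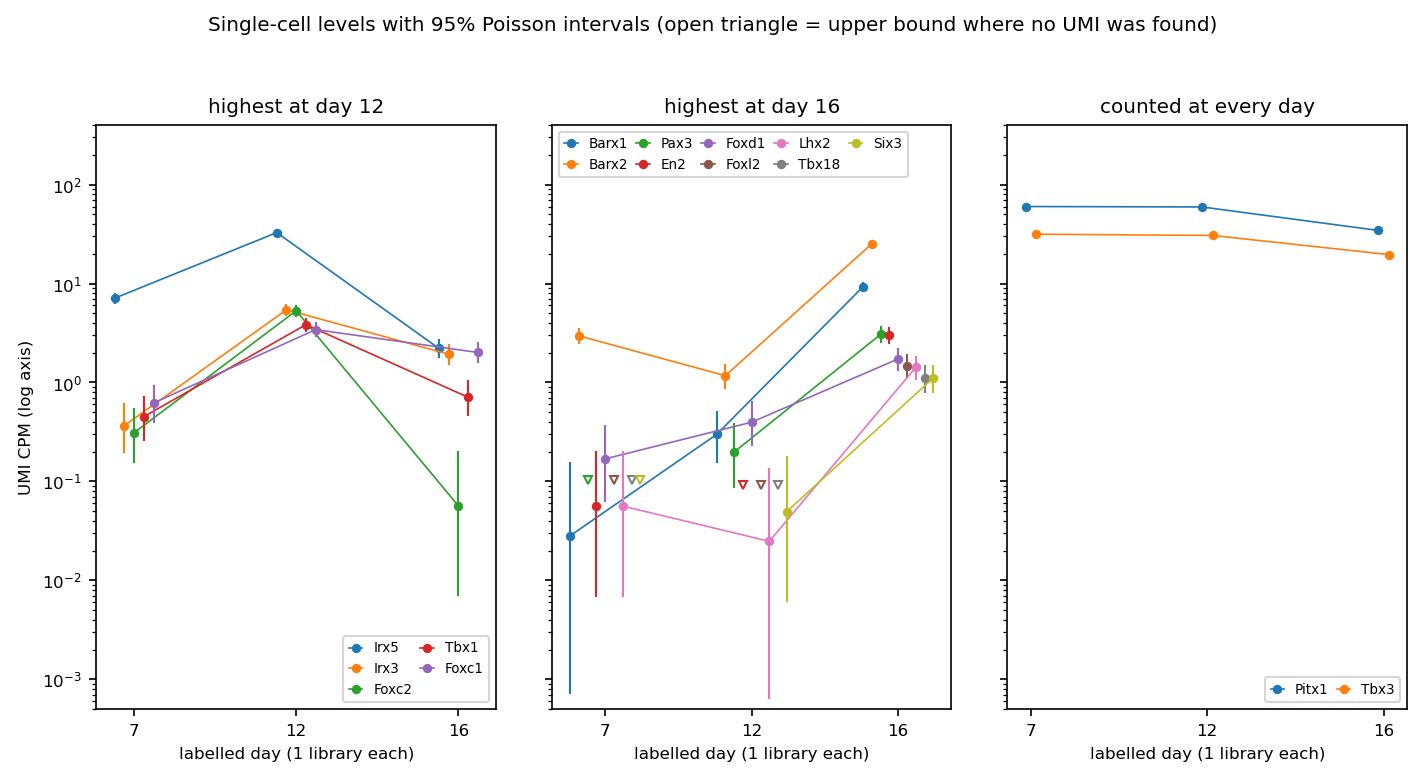
UMI CPM of 16 members in the single-cell libraries of days 7, 12 and 16 (log axis, points with 95% Poisson intervals, open triangles for upper bounds where no UMI was found, points shifted sideways for legibility). The 5 members on the left are highest at day 12, the 9 in the middle at day 16, and Pitx1 and Tbx3 are present at each day and lowest at day 16.

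The factors of day 16 were unevenly spread over the cells. Of 20 members found in at least 20 cells, without Tbx3, Pitx1 and Barx2, 14 had more Muc2 and 13 more Chga in the cells that held them than in the rest. For Mki67 the number was 11, for Vim 9, for Fabp1 5 and for the stem cell gene Lgr5 5. For the tuft cell gene Dclk1 and the stem cell gene Olfm4 it was 1 each. These counts were not made over all genes and cannot be read as particular to the members. Barx1 UMIs lay in 123 cells, 65 of which held 2 or more, with up to 13 in one cell. These cells held 2550 UMI CPM of the goblet cell mucin Muc2 against 169 in the rest, at a similar depth (median 11751 against 11910 UMIs). Taken from the marker side, cells with at least 10 Muc2 UMIs (195 cells) held 70.9 UMI CPM of Barx1 (61.2 to 81.8), and cells with no UMI of Muc2, of the enterocyte gene Fabp1 or of the enteroendocrine gene Chga (1292 cells) held 2.19 (1.5 to 3.09). The 48 cells with at least 10 Chga UMIs held 18.6 (7.46 to 38.2), and the 178 with at least 10 Fabp1 UMIs held 2.07 (0.758 to 4.5). After thinning, Barx1 was found in 14.4% (9.76 to 20.1) of the Muc2 cells and 0.542% (0.218 to 1.11) of the cells without the 3 markers. Before thinning these shares were 32.3% and 1.7%, and the median depths were 10980 and 10683 UMIs. Barx2 took the other order, at 12.4 (8.53 to 17.4) in the Muc2 cells, 22.2 (19.9 to 24.8) in cells without the 3 markers and 36.2 (29.6 to 43.8) in cells with at least 10 Fabp1 UMIs. Pitx1 was at 17.3 (12.6 to 23) in the Muc2 cells and 35.4 (32.4 to 38.6) in cells without the markers. At day 7, 36 cells had at least 10 Muc2 UMIs, and they held 0 Barx1 UMIs (up to 4.26 UMI CPM). These groups of cells were formed after the values were seen, come from 1 library a day and were not tested.

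**Figure D4:**
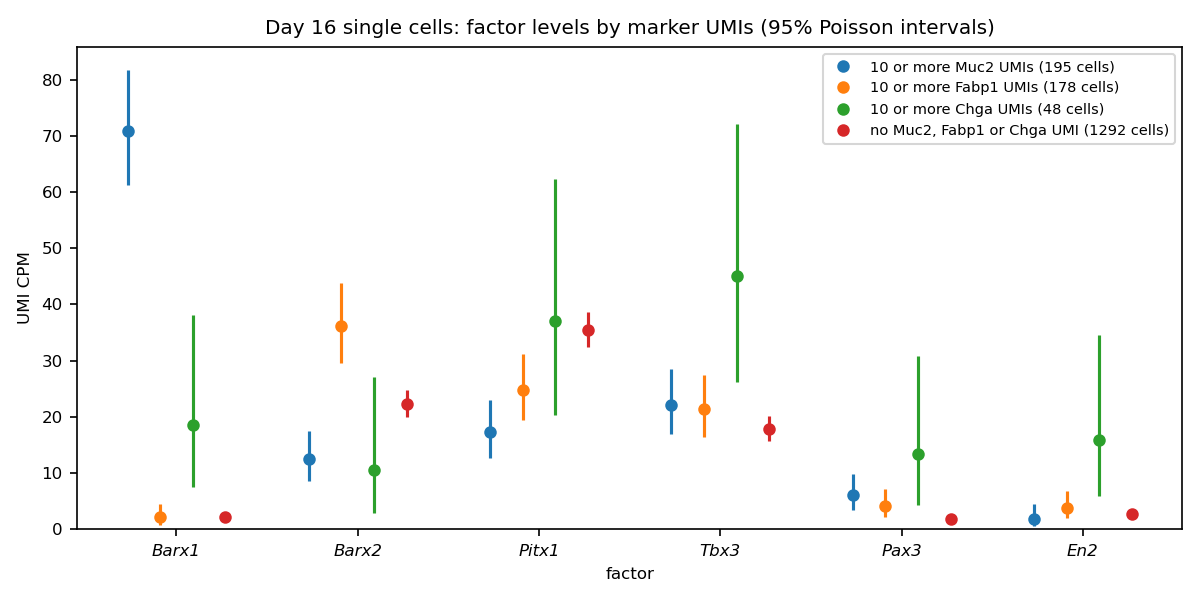
UMI CPM of 6 members in day 16 cells grouped by UMIs of Muc2, Fabp1 or Chga (points with 95% Poisson intervals, linear axis from 0, a cell can be in more than 1 marker group). Barx1 is highest in cells with at least 10 Muc2 UMIs, at 70.9 UMI CPM, and Barx2 in cells with at least 10 Fabp1 UMIs, at 36.2.

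Cells that carried Cdkn2a UMIs also carried more of the members. Cdkn2a encodes a cell cycle inhibitor that is a textbook PRC2 target. At day 16, 371 of 2768 cells held a Cdkn2a UMI, and in them the members without Tbx3, Pitx1 and Barx2 summed to 139 UMI CPM (129 to 150), against 24.3 (22.5 to 26.1) in the other 2397 cells. In thinned cells the shares with such a member were 25.3% (21 to 30.1) and 5.09% (4.24 to 6.05), and 72.5% and 16.4% before thinning, with median depths of 13153 and 11715 UMIs. Of 20 of these members found in at least 20 cells at day 16, 19 had more UMI CPM of Cdkn2a in the cells that held them than in the rest. The same count was not made over all genes, so it cannot be read as particular to the members. For Pax3 the values were 146 and 22.2, for Foxl2 176 and 24.1 and for Tbx15 181 and 25.2. The exception was Pax8, at 14.2 and 27.1. Of the members already above 1 CPM in bulk RNA at day 9, Irx3 had 50.6 and 26.1 and Tbx3 29.2 and 26.1, while Barx2 had 26 and 27.1 and Pitx1 23.6 and 28.7. At day 12, 29 cells held Cdkn2a, with 163 (122 to 214) against 53.4 UMI CPM of members, and at day 7 no kept cell held it. These cells were grouped after values were seen, come from 1 library a day and were not tested.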

How the data were processed

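The deposited bulk table holds raw read counts per gene for 24014 symbols. Per the submitters' processing notes, reads were handled with STAR 2.5.3a, Cell Ranger 3.0.2 and DESeq2 on build mm9, and the gene counter is not given in the sources used here. In the table, 27 symbols are spreadsheet dates, and 1 per-sample column that matches no sample was not used. Per the labels, day 14 replicate 2 was a single-end TruSeq library, and the labels of the other bulk libraries name no kit. Day 30 replicate 2 is not analysed here.

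Counts were fitted with edgeR 4.0.16 (R 4.3.3; filterByExpr, TMM, quasi-likelihood test over the 8 libraries, residual df 4, common biological coefficient of variation 0.172), and DESeq2 1.42.0 served as an alternative. Where a day 9 group has 0 counts, a floor of 3 counts over the group gives a lower bound. With 1 to 3 counts the ratio is given with an exact binomial 95% interval. That interval pools the libraries of each day, covers counting error only and leaves out the spread between replicates. Replicate numbers do not pair the libraries. The fit was tried on simulated data in which every changed gene had a mean above 1 CPM at day 9, and 74% of the 2-fold changes were recovered. Most members lie below that level at day 9, so the simulation does not show how the fit performs for them.

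The deposited single-cell files hold UMI counts for all barcodes. Cells kept had over 10% of the 99th percentile of the top 5000 barcodes' UMIs (2532, 2179 and 2812 at days 7, 12 and 16), 500 genes or more and no more than 20% of UMIs from mitochondria. No doublet caller was run.

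Members and lists were chosen with earlier results of these data known. Every member called at day 14, called late with at least 1 CPM, above 1 CPM at day 9, or with the smallest adjusted p of its family has its value in each library given. Other named genes, the cell groups by marker UMIs and the promoters were chosen after values were seen. Human samples were left out as another system.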

Additional observations from a re-analysis of the deposited data

Results flagged for a closer look

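Barx2 was the member that was called lower at day 14 and then called again between days 14 and 21, in the opposite direction. Its log2 change against day 9 was -3.41 at day 14 and -0.34 at day 21, a difference of 3.07 (SE 0.54, edgeR adjusted p = 0.00133). It had 2.14 and 0.826 CPM in the day 14 libraries and 16.3 and 8.74 in those of day 21, so both libraries of each day showed the direction. The part of the goblet and enterocyte markers, whose sums were also lower at day 14, and of the fewer genes counted in the day 14 libraries was not tested.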

How the results depend on the processing

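Of the calls of single members under the alternatives, 819 kept their side of the threshold, 121 lost it and 0 changed sign. Alternatives in which a member was not tested are left out of these numbers. Leaving out 1 library moved the members called higher between 9 and 12 at day 14, 11 and 23 at day 21, 10 and 20 at day 30, and 11 and 18 between days 14 and 21, and those called lower at day 14 between 1 and 3. Members called lower at day 14 were 2 without the filter on low counts and 2 by DESeq2, in both cases Tbx2 and Barx2. Fitting days 9 and 14 alone gave 6 higher, with 12 members tested. With the replicate block the counts were 6 at day 14, 10 at day 21 and 8 at day 30, but same-numbered libraries share only a number (correlations of their deviations -0.02 to 0.05). Calls that held under every alternative in which the member was tested numbered 7 at day 14, 8 at day 21 and 8 at day 30. Library sizes without TMM shifted the median of all tested genes to 0.21 at day 21 and 0.2 at day 30, with 22 members called at each. Day 30 has 1 library, assumed to vary like the others.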

Other observations

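Nkx2-1, a lung and thyroid factor, was counted early and not late. It had 7, 9 and 4 counts in the day 9 libraries, 5 and 7 at day 14 and 0 in each library of days 21 and 30. edgeR's filter left it untested. Against a floor of 3 counts over the group it was at least 5.7-fold lower at day 21 and at least 2.94-fold lower at day 30, and DESeq2 called it lower at day 21 against day 9 (log2 -5.47, adjusted p = 0.0471) and against day 14 (log2 -5.45, adjusted p = 0.0309). In single cells it had 0 UMIs at each day. It was singled out after its values were seen.

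Some members were counted in 1 of the 2 day 14 libraries alone. Foxd1 had 17 counts in replicate 1 and 0 in replicate 2, Lhx2 had 24 and 0, and Pax9 had 8 and 0. Lhx9, a gonad and limb factor, had 0 and 14, and then 0 and 9 counts at day 21 and 1 at day 30. These 4 were picked after their values were seen.

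Barx2 cells held more of the enterocyte gene Fabp1 at each day, and more of Muc2 before day 16. Cells with a Barx2 UMI held 199 UMI CPM of Fabp1 against 17.5 in the rest at day 7, and 2470 against 30.1 at day 12. At day 16 these cells held 622 against 341. They held 115 against 38.1 of Muc2 at day 7 and 142 against 24.6 at day 12, but 154 against 327 at day 16. Barx2 cells were deeper than the rest, with medians of 11129 against 7888 UMIs at day 7, 9753 against 7531 at day 12 and 13846 against 11357 at day 16.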
